A study of Mus musculus with 4 samples.

Results

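Integrin subunit genes were described in DN4 thymocytes (late double-negative cells, which have neither CD4 nor CD8 at the surface) after inducible deletion of Ikaros. The family held 10 genes, with 6 alpha subunit genes (Itga4, Itga5, Itga6, Itgal, Itgae and Itgav) and 4 beta subunit genes (Itgb1, Itgb2, Itgb3 and Itgb7), out of 19938 genes that the array names through a probe set with exactly 1 gene symbol. They were picked by gene symbol, with earlier results of these data known. Each of the 10 was represented by its only such probe set. Each mouse gave 1 Affymetrix mouse gene array, read here as deposited log2 values. All 4 mice carried floxed alleles of Ikzf1 (Ikf/f), which encodes Ikaros, a zinc-finger protein that binds DNA. All were injected intraperitoneally with tamoxifen in sunflower oil, 50 mg/kg a day over 4 days, and were taken 24 h later. Mice 129 and 135 (Cre+) also carried Rosa26-CreERT2, a tamoxifen-inducible Cre recombinase made from the broadly active Rosa26 locus, so that deletion was not limited to thymocytes. Mice 131 and 137 (Cre-) carried no Cre, so that the Cre protein itself also differs between the groups. The sources used here give neither strain nor age, and the protocol text names the Cre+ genotype for all 4 samples, while the titles give the Cre status used here. Loss of Ikaros protein in sorted Cre+ cells was seen by western blot, per the design text.

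Integrins are receptors made of 1 alpha and 1 beta chain that hold cells to the extracellular matrix and to other cells. A subunit reaches the cell surface as part of a pair, so the amount of a receptor depends on both genes. In the thymus, integrins with the beta1 chain bind fibronectin and VCAM-1 (VLA-4 and VLA-5) or laminin (VLA-6), LFA-1 binds ICAMs on other cells, and integrins with the beta7 chain bind MAdCAM-1, VCAM-1 or, with the alphaE chain, E-cadherin on epithelium.

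The laminin receptor gene Itga6, the fibronectin receptor gene Itga5 and their common partner Itgb1 had higher values in Cre+ cells, and Itga4, the other fibronectin receptor gene, had lower values. Adjusted in limma over all 35556 probe sets, 0 members and 0% of probe sets had a p under 0.05, and the smallest adjusted p was 0.0570. At an unadjusted p under 0.05, 7 of the 10 members were called (3 higher and 4 lower) against 6.63% of all probe sets (3.50% higher and 3.13% lower) and 6.76% of those with 1 gene symbol (4.05% higher and 2.71% lower). A second fit, the restricted test, used the 21789 probe sets that carry a single symbol. In it, 4 members passed an adjusted p under 0.05 (Itga6, Itga5 and Itgb1 higher, Itga4 lower), against 1.22% of probe sets (0.936% higher and 0.285% lower). The 2 Cre+ values did not overlap the 2 Cre- values in 7 of 10 members (3 higher and 4 lower), as in 36.2% of probe sets with 1 gene symbol (16.0% higher and 20.2% lower). The median size of the difference, whatever its sign, was 0.46 over the members and 0.06 over probe sets with 1 gene symbol. The signed median was -0.13 over the members and -0.01 over probe sets with 1 gene symbol, and without mouse 131 the members' median was -0.25. The members, like the gene lists below, were chosen with earlier results of these data known. The counts and sizes set beside those of all probe sets therefore do not test the family or the lists. With 2 mice against 2 no exact two-sided permutation test can give a p under 0.333, so limma's p-values borrow the spread of other probe sets.

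**Figure D1:**
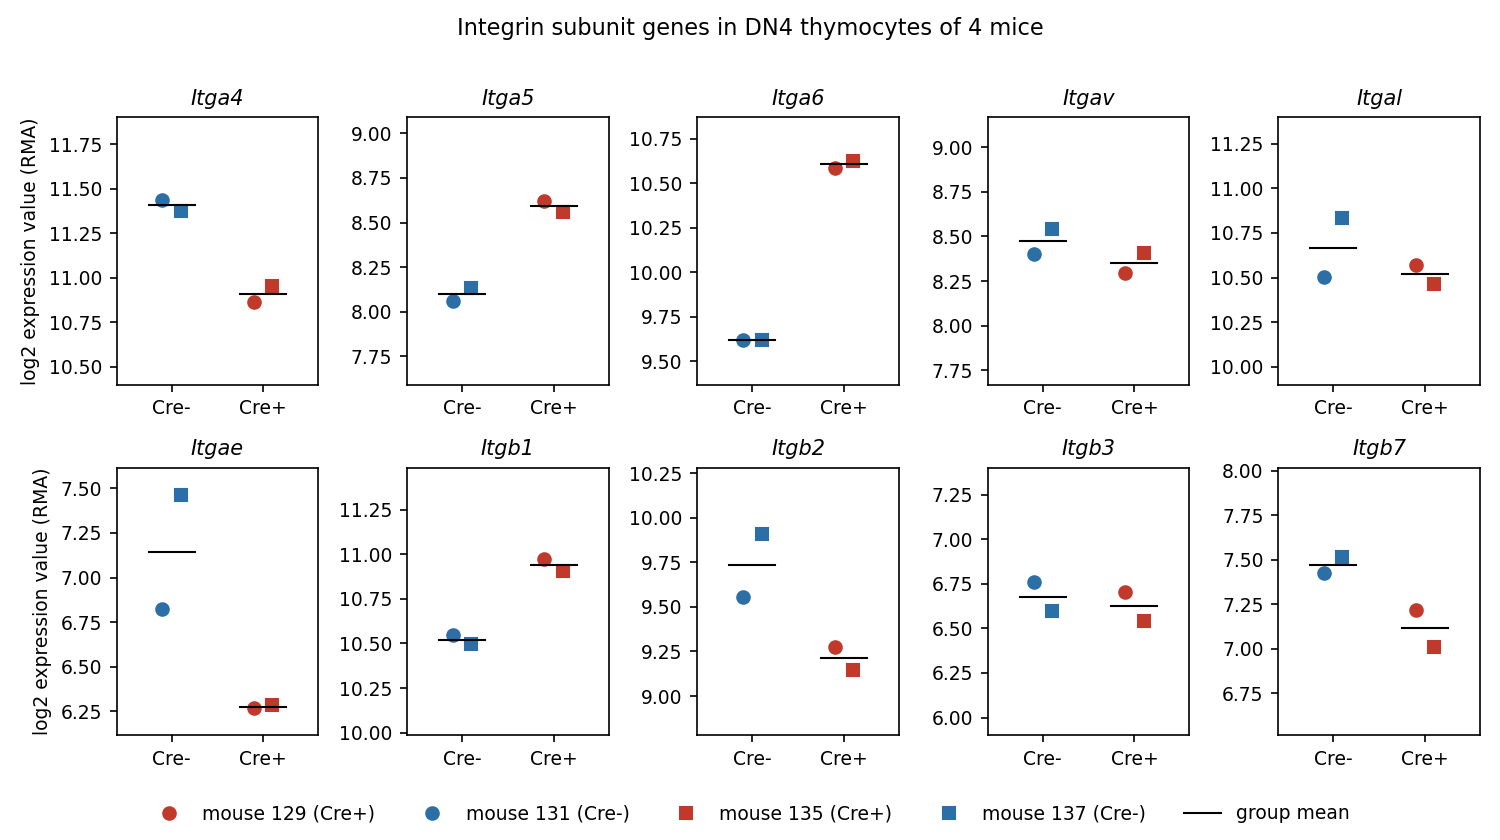
Log2 expression value (vertical axis, RMA) of each integrin subunit gene in the 2 Cre- mice (blue) and 2 Cre+ mice (red), with circles for mice 129 and 131, squares for mice 135 and 137 and a black line at each group mean. Each panel spans the same number of log2 units at its own level, so differences can be compared between panels and levels cannot. Itga6 lies at 10.59 and 10.62 in the Cre+ mice, far above the 9.62 in both Cre- mice, and Itgal, Itgav and Itgb3 overlap between groups.

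Ikzf1 itself was 12.06 and 11.99 in Cre+ mice, compared with 12.07 and 12.11 in Cre- mice (difference -0.07, SE 0.04, limma adjusted p = 0.925). Where its probes lie relative to the floxed part was not analysed here, so this value does not check the labels of the mice. Xist and Y-linked transcripts gave 1 female in each group (mouse 129 among Cre+, mouse 131 among Cre-) and 1 male in each (mice 135 and 137). T lineage transcripts were present in every mouse, with 14 of 16 listed markers measured and all their values between 8.03 and 13.36. Of the 14, 9 had higher and 5 lower means. The restricted test called 3, all higher (Cd3d 0.66, Cd3g 0.37 and Cd3e 0.25), against 1.22% of probe sets with 1 gene symbol. The log2 of the summed unlogged values was 15.70 and 15.57 in Cre+ mice, against 15.46 and 15.49 in Cre- mice. The 19 measured markers of macrophages and dendritic cells ran from 4.76 to 9.07, and 12 of them lay below the median level of all probe sets. Il2ra, the gene of CD25, which marks the preceding DN3 stage, was 11.07 and 10.71 in Cre+ mice, compared with 11.58 and 10.96 in Cre- mice, so its transcript was not low in these sorted cells. In bulk RNA, fewer cells of a type and less RNA per cell cannot be told apart, which applies to every value given here.

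Itga6 encodes the alpha6 chain, which binds laminin with the beta1 chain as VLA-6 or with the beta4 chain. Cre+ mice had values of 10.59 and 10.62, and both Cre- mice had 9.62. The 2 mice of each group lay within 0.04 of each other, with no overlap between groups. The difference was 0.99 (SE 0.06, 1.98-fold), with limma adjusted p = 0.0664 over all probe sets and 0.000590 in the restricted test. Of the 21789 probe sets with 1 gene symbol, 61 had a larger rise in mean. Itga6 passed the restricted test under all 7 versions run, which were the test itself, 4 without each mouse in turn, 1 without an intensity trend and 1 with sex as a block. It also passed over all probe sets once the arrays were centred on their medians (limma adjusted p = 0.0434).

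Itgb1 encodes the beta1 chain, the partner of alpha4, alpha5, alpha6 and alphav. It was 10.97 and 10.90 in Cre+ mice, compared with 10.55 and 10.50 in Cre- mice. Both Cre+ values lay above both Cre- values. The difference was 0.42 (SE 0.06, 1.34-fold), with limma adjusted p = 0.203 over all probe sets and 0.0158 in the restricted test. Without mouse 129 the adjusted p was 0.0713 and without an intensity trend 0.0899, so the call was lost in both.

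Itga5 encodes the alpha5 chain of the fibronectin receptor VLA-5. It was 8.62 and 8.56 in Cre+ mice, compared with 8.06 and 8.13 in Cre- mice. The groups did not overlap, and the spread within a group was under 0.08. The difference was 0.50 (SE 0.09, 1.41-fold), with limma adjusted p = 0.349 over all probe sets and 0.0477 in the restricted test. This call lay close to the threshold and was lost without mouse 129 (adjusted p = 0.319), without mouse 131 (0.0533), without mouse 135 (0.144) and without an intensity trend (0.0584).

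Itga4 encodes the alpha4 chain, which binds fibronectin and VCAM-1 with beta1 as VLA-4 and MAdCAM-1 with beta7. It was 10.86 and 10.96 in Cre+ mice, compared with 11.44 and 11.38 in Cre- mice. Itga4 thus lay lower in both Cre+ mice, opposite to Itga5 and Itga6. The difference was -0.50 (SE 0.05, 1.41-fold lower), with limma adjusted p = 0.139 over all probe sets and 0.00466 in the restricted test. The call was kept without each mouse in turn and lost without an intensity trend (adjusted p = 0.0609).

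**Figure D2:**
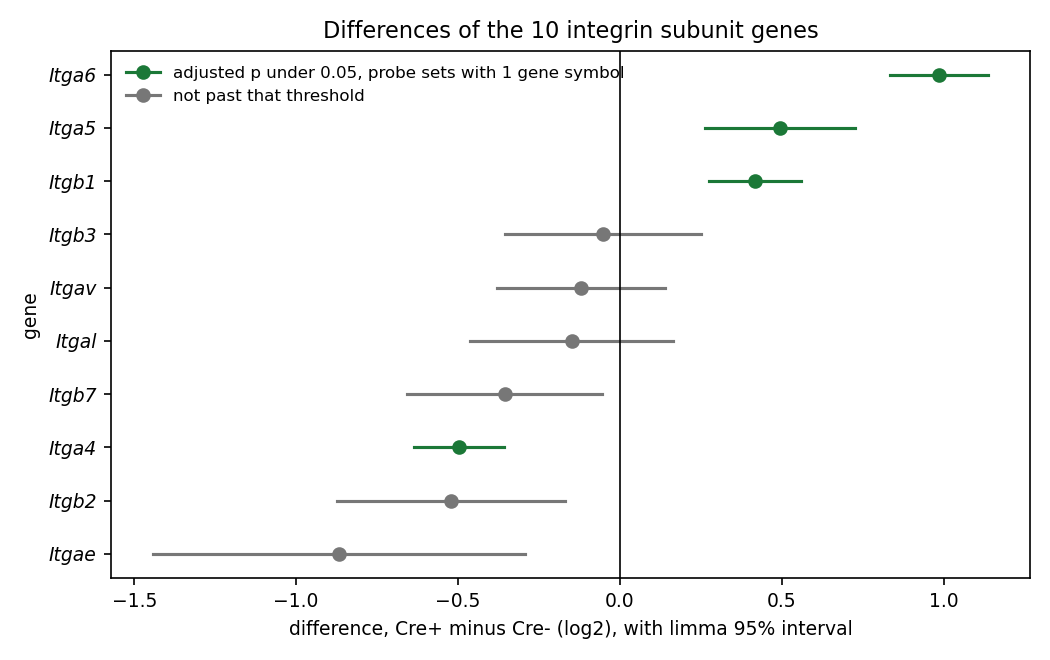
Difference between Cre+ and Cre- means (horizontal axis, log2) of the 10 integrin subunit genes, in order of size, with limma's 95% interval as a line. Green marks the 4 genes past an adjusted p under 0.05 in the restricted test (Itga6 at 0.99, Itga5 at 0.50, Itgb1 at 0.42 and Itga4 at -0.50), and grey the others, of which Itgae at -0.87 has the widest interval (-1.44 to -0.29).

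Promoter sequence from RefSeq (build GRCm38.p6) was matched for 5 of the 10 members (Itga4, Itga5, Itgav, Itgb1 and Itgb7). Those of the 3 matched members that passed the restricted test are shown, so that the 2 genes with higher values can be set beside the 1 with lower values. Each is the 250 bases before the annotated start, 5′ to 3′ on the strand of the gene. Capitals mark GGGAA on either strand (TTCCC on the strand printed), the core that Ikaros family proteins are known to bind.
Itga5, chr15:103366792-103367041, minus strand: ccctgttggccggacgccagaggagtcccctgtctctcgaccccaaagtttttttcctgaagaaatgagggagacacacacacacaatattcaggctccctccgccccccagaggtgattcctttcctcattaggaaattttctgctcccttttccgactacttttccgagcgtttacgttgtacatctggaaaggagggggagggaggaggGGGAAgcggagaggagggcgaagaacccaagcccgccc
Itgb1, chr8:128685404-128685653, plus strand: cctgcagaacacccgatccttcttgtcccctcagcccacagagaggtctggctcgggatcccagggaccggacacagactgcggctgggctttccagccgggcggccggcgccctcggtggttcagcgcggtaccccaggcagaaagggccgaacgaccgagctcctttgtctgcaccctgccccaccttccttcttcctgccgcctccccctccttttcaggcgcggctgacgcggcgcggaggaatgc
Itga4, chr2:79255176-79255425, plus strand: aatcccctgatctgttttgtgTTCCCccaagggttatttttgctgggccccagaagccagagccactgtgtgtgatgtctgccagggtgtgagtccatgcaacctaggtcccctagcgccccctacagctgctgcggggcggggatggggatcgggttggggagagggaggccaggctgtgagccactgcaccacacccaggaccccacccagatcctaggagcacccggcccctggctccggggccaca
GGGAA occurred 1 time in the Itga5 window, with 38 bases from the first base of the match to the start, 1 time in that of Itga4 at 229 bases, and 0 times in that of Itgb1. On either strand, 3 of the 5 matched members held it (Itgav was the other), against 56.2% of the 32851 promoter windows of this length. The longer TGGGAA, which contains the core, occurred in 0 of the 5 and in 21.6% of all windows. These matches describe letters only, and no binding was measured.

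The leukocyte integrin LFA-1 is made of the alphaL chain (Itgal) and the beta2 chain (Itgb2). Itgb2 was 9.28 and 9.15 in Cre+ mice, compared with 9.56 and 9.91 in Cre- mice. Both Cre+ values were below both Cre- values, and the 2 Cre- mice were 0.35 apart. The difference was -0.52 (SE 0.14, 1.44-fold lower; limma unadjusted p = 0.0127, adjusted p = 0.526 over all probe sets and 0.103 in the restricted test). It was -0.34 without mouse 137 and -0.70 without mouse 131, and in the restricted test it passed without mouse 131 (adjusted p = 0.00448) and with sex as a block (0.0333).

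Itgal was 10.57 and 10.46 in Cre+ mice, compared with 10.50 and 10.83 in Cre- mice. The groups overlapped, with the highest value in Cre- mouse 137. The difference was -0.15 (95% interval -0.46 to 0.17), and it was 0.02 without mouse 137. In limma it had an adjusted p = 0.987, and the interval holds sizes from 1.38-fold lower to 1.12-fold higher.

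The alphaE chain (Itgae, CD103) pairs with beta7 (Itgb7). Itgae was 6.27 and 6.28 in Cre+ mice, compared with 6.82 and 7.46 in Cre- mice. The Cre+ mice were nearly equal and both below the Cre- mice, which were 0.64 apart. The difference was -0.87 (SE 0.22, 1.82-fold lower; limma unadjusted p = 0.0116, adjusted p = 0.515 over all probe sets and 0.0792 in the restricted test). Among probe sets with 1 gene symbol, 9 had a larger fall in mean. The size rested on mouse 137, since it was -0.55 without that mouse and -1.19 without mouse 131, and the restricted test called it in both cases (adjusted p = 0.0276 and 0.000283) and with sex as a block (0.00476).

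Itgb7 was 7.22 and 7.01 in Cre+ mice, compared with 7.42 and 7.52 in Cre- mice. The groups did not overlap, and the 2 Cre+ mice were 0.20 apart. The difference was -0.36 (SE 0.12, 1.28-fold lower; limma unadjusted p = 0.0287, adjusted p = 0.660 over all probe sets and 0.247 in the restricted test). It was past the restricted threshold in 0 of the 7 versions.

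Summed levels of the marker lists for later thymocytes and for gamma-delta and innate T cells were also lower in both Cre+ mice. That of the DN2 and DN3 list (8 of 8 measured, 6 with lower means) overlapped, with 13.40 and 13.30 for Cre+ against 13.47 and 13.32 for Cre-. The restricted test called 1 of the 8, Hes1, which was higher, at 11.25 in both Cre+ mice against 10.35 and 10.32 in Cre- mice. The sum includes Hes1, so its overlap does not show that the rest of the list behaved unlike the lists for later cells. Of the list for double-positive and single-positive thymocytes, 9 of 11 genes were measured and 8 of the 9 had lower means in Cre+ cells. The restricted test called 0 of the 9, and it called 1.22% of probe sets with 1 gene symbol. The summed level of this list, as log2 of the sum of unlogged values, was 12.38 and 12.41 in Cre+ mice versus 12.58 and 12.83 in Cre- mice. Runx3, a transcription factor of the CD8 lineage that is also active in other lymphocytes, was 8.77 and 8.66 in Cre+ mice, compared with 9.19 and 9.63 in Cre- mice, and Cd8a at 8.07 and 8.59 against 8.77 and 9.12, with the highest value of both in mouse 137, as for Itgae. Cd4 went the other way, at 7.88 and 7.94 against 7.26 and 7.47. Of the gamma-delta and innate T cell list, 7 of 11 genes were measured, all 7 with lower means and 1 past the restricted test (Blk, at 7.41 and 7.39 against 7.90 and 7.91), and the summed level was 10.09 and 10.04 in the Cre+ mice against 10.27 and 10.21. For natural killer and innate lymphoid cells, 10 of 10 genes were measured, with 4 lower means, 1 gene past the restricted test (Nkg7, of cytotoxic granules, at 8.88 and 8.91 against 10.03 and 9.85), and the summed level was 10.67 and 10.73 against 10.92 and 11.07. The deposited values hold no zeros, so no marker can be called absent by a value of 0. Of the B cell list, 9 of 10 genes were measured, and 6 of the 9 had lower means (median -0.18). Among them were Cd79a (-0.35), Cd22 (-0.26) and Ms4a1 (-0.42), the last with overlapping groups. Mouse 137 had the highest values of these genes too, with Ms4a1 at 5.77 against 4.76 to 5.13 in the others and Cd22 at 6.20 against 5.75 to 5.86. Ebf1 and Blnk were also highest in that mouse, while Pax5, Vpreb1, Cd79b and Igll1 were highest in other mice. Of the 3 with higher means, Cd79b had the highest values of the list, at 10.34 and 10.15 against 10.04 and 9.96, and did not pass the restricted test. The gene of that list past the restricted test was higher (Igll1, which early lymphoid cells also express, at 8.11 and 7.94 against 6.68 and 6.62), and the summed level was 10.95 and 10.81 against 10.63 and 10.61. The part of these cell types in the lower values of Itgae, Itgb7 and Itgb2 was not tested. The macrophage and dendritic cell list (19 of 21 measured) did not separate the groups, with a summed level of 10.82 and 11.09 in Cre+ mice, and 10.77 and 11.05 in Cre- mice. Within it Lyz2 was higher in Cre+ cells by 1.04 (SE 0.18, adjusted p = 0.0206 in limma's restricted test), and Cd74 was highest in mouse 137, at 8.28 against 7.02 to 7.45 in the others.

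The alphav chain (Itgav) and the beta3 chain (Itgb3) form a receptor for vitronectin and other ligands with the RGD motif. Itgav was 8.30 and 8.41 in Cre+ mice, compared with 8.40 and 8.54 in Cre- mice. Itgb3 was 6.71 and 6.54 in Cre+ mice, compared with 6.76 and 6.60 in Cre- mice. For both genes the groups overlapped, and for Itgb3 both females lay above both males. The differences were -0.12 (95% interval -0.38 to 0.14) and -0.05 (-0.36 to 0.25), with limma adjusted p = 0.992 and 1 over all probe sets, and the direction of Itgb3 turned without mouse 131 (0.028) or 135 (0.029). The mean levels of Itgb3 and Itgae lay below the median of all probe set means (6.85). The platelet genes Pf4 and Ppbp, markers of the cells in which beta3 is most abundant, were between 4.20 and 4.59, and the 7 of 11 platelet markers measured had summed levels of 9.06 and 8.93 in Cre+ mice, and 9.10 and 8.97 in Cre- mice.

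The alpha and beta genes of 8 known integrins were then read together, as the log2 value of the alpha gene minus that of the beta gene on each array. A change in this value shows that the 2 genes differed unequally between groups, and its level has no meaning between different probe sets. These comparisons are given with no test, and they share genes, Itgb1 entering 4 of them.

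For VLA-4 the value was -0.11 and 0.05 in Cre+ mice, and 0.89 and 0.88 in Cre- mice. The balance of Itga4 to Itgb1 was thus lower by 0.91 (1.89-fold), since the alpha gene was lower and the beta gene higher. For VLA-6 the value was -0.39 and -0.28 in Cre+ mice, and -0.93 and -0.87 in Cre- mice. The difference of Itga6 thus exceeded that of Itgb1 by 0.57 (1.48-fold). For VLA-5 the value was -2.35 and -2.34 against -2.49 and -2.36. The change of 0.08 was near the pooled SD of 0.06, with Itga5 higher by 0.50 and Itgb1 by 0.42.

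For alpha4 beta7 both genes were lower and the value overlapped between groups, at 3.65 and 3.94 in Cre+ mice, and 4.01 and 3.86 in Cre- mice. For alphaE beta7 both genes were lower too, and the value was -0.95 and -0.73 against -0.60 and -0.05. The change of -0.51 had a pooled SD of 0.30 and was -0.24 without mouse 137, so how unequally the 2 genes differed depended on that mouse. For LFA-1 the value was 1.30 and 1.32 in Cre+ mice, and 0.94 and 0.92 in Cre- mice. Although Itgal and Itgb2 each varied between mice of a group, their balance varied little (pooled SD 0.01), and it was higher by 0.37 in the Cre+ mice. For alphav beta1 the value was lower by 0.54, and for alphav beta3 it overlapped between groups.

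**Figure D3:**
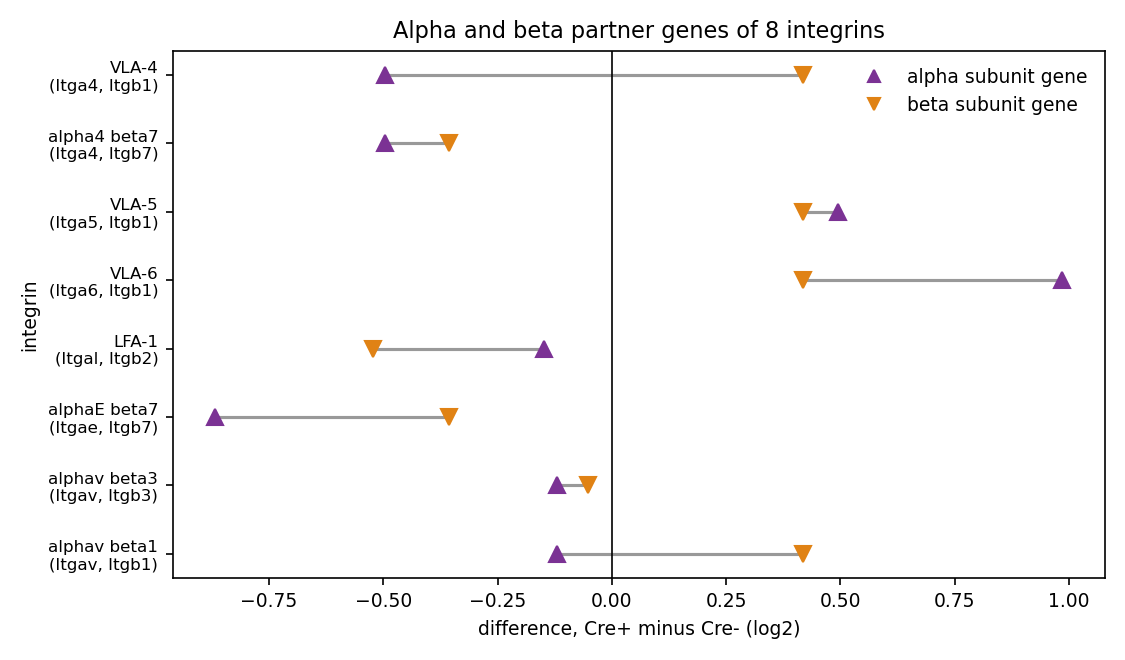
Difference between Cre+ and Cre- means (horizontal axis, log2) of the alpha subunit gene (upward triangle) and the beta subunit gene (downward triangle) of 8 integrins, joined by a grey line. In VLA-4 the alpha gene lies at -0.50 and the beta gene at 0.42, in VLA-5 and VLA-6 both lie above 0, and in alpha4 beta7, LFA-1 and alphaE beta7 both lie below 0.

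The comparison was repeated within the 2 females (mouse 129 minus 131) and within the 2 males (135 minus 137). Of the 10 members, 9 had the same sign in both pairs. Itga6 differed by 0.97 in the females and 1.0 in the males, and Itgb1 by 0.43 and 0.41. Itga5 differed by 0.56 and 0.43 and Itga4 by -0.57 and -0.42. The smallest difference in size among these 4 genes was 0.408, that of Itgb1 in the males, and Itgae exceeded it in both pairs. The 4 genes had a small spread within groups, through which they were called, so the likeness of their pairs is no separate support. Itgae, Itgb2 and Itgb7 had their larger difference in the males. Itgae differed by -0.56 in the females and -1.18 in the males, Itgb2 by -0.28 and -0.76, and Itgb7 by -0.21 and -0.50. Each pair is 1 mouse against 1, so whether the pairs differ was not tested.

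**Figure D4:**
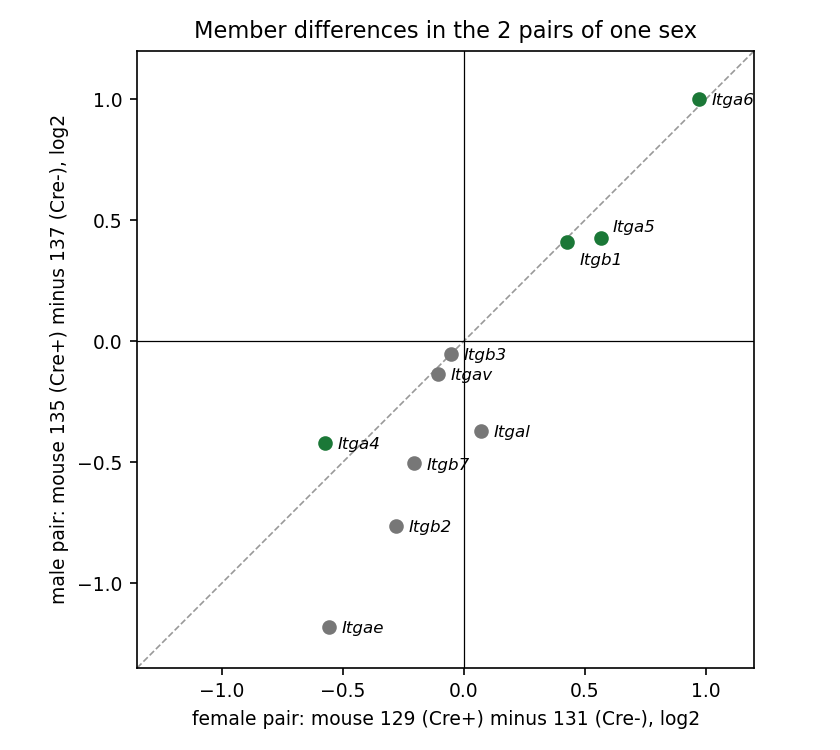
Difference of each member between the Cre+ and the Cre- mouse of the female pair (horizontal axis, mouse 129 minus 131, log2) and of the male pair (vertical axis, mouse 135 minus 137, log2), with a dashed line of equality and green for the 4 genes past the restricted test. Itga6 lies at 0.97 and 1.0, Itgal is the member with opposite signs, and Itgae, Itgb2 and Itgb7 lie below the line.

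The genes whose values over the 4 arrays followed Itga6 most closely were sought among 19937 genes, by the root mean square distance after each gene was centred on its mean. They were Apbb2, an adaptor gene (distance 0.032), the cytochrome P450 gene Cyp4f16 (0.037) and Hes1, a transcriptional repressor induced by Notch (0.041). With 4 arrays this is a description of genes with the same difference and a small spread. Hes1 had 11.25 in both Cre+ mice, against 10.35 and 10.32 without Cre.

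Of the other 18 integrin subunit genes, all were measured and 13 had higher and 5 lower means (median 0.04). The restricted test called 0 of them, against 1.22% of probe sets with 1 gene symbol. At an unadjusted limma p under 0.05 there was 1 (5.56%), near the 6.76% of probe sets with 1 gene symbol. That 1 was Itga9, an alpha chain that pairs with beta1, at 6.86 and 6.76 in Cre+ mice, and 6.57 and 6.20 in Cre- mice (difference 0.42, SE 0.15). It passed in the restricted test without mouse 131 (limma adjusted p = 0.0196) and with sex as a block (0.0495). Itgb4, the alternative partner of Itga6, was at 8.13 and 8.01 against 8.08 and 7.77 (0.14, SE 0.14), and was -0.01 without mouse 137. Itgbl1 differed by 0.16 (SE 0.12) and Itgax by -0.09 (SE 0.08). The mean of 16 of these 18 genes lay below the median of all probe sets.

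Genes that promote or restrain the switch of integrins to their ligand-binding state, such as those of talin, kindlin and the Rap1 pathway, were all measured. The list mixes both kinds, and Flna is among those that restrain the switch, so its counts give no direction of activation. Of the 29, 12 had higher and 17 lower means (median -0.01). The restricted test called 0 of them, against 1.22% of probe sets with 1 gene symbol. At an unadjusted limma p under 0.05 there were 2 (6.90%), both lower, near the 6.76% of probe sets with 1 gene symbol. These counts thus do not set the list apart. Skap1, an adaptor that links the T cell receptor to LFA-1, was 10.95 and 11.06 in Cre+ mice, compared with 11.16 and 11.26 in Cre- mice (-0.21, SE 0.06). Flna, the gene of filamin A, which binds beta tails, differed by -0.30 (SE 0.11) and passed the restricted test without mouse 131 (limma adjusted p = 0.0212). Apbb1ip, which encodes the Rap1 effector RIAM, differed by -0.11 (SE 0.05) and Rap1b by -0.06 (SE 0.03).

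Among genes of the complex that ties integrin tails to actin, 33 of 35 were measured, with a list median of 0.04. Of the 33, 5 passed the restricted test (15.2%, 4 higher and 1 lower), against 1.22% of probe sets with 1 gene symbol. Vcl, the gene of vinculin, which reinforces the link to actin, was 9.27 and 9.20 in Cre+ mice, compared with 8.34 and 8.42 in Cre- mice (0.86, SE 0.09, 1.81-fold, limma adjusted p = 0.00319 in the restricted test). Rsu1, a partner of the integrin-linked kinase complex, was at 12.57 and 12.53 against 12.17 and 12.13 (0.40, SE 0.03, adjusted p = 0.00132 in limma's restricted test). Vinculin and Rsu1 were thus higher in both Cre+ mice with little spread. Tns3 (tensin 3), which binds beta tails, was at 9.38 and 9.19 against 8.68 and 8.71 (0.59, SE 0.10, adjusted p = 0.0256 in limma's restricted test). The kinase gene Fyn was at 10.12 and 10.06 against 9.68 and 9.66 (0.42, SE 0.06, adjusted p = 0.0320 in limma's restricted test). Tes (testin), a focal adhesion protein, was at 7.46 and 7.69 against 8.24 and 8.48 (-0.79, SE 0.14, adjusted p = 0.0252 in limma's restricted test). It was the gene of the list that passed with a lower value. Without mouse 129 the restricted test called 2 of the list, Vcl and Rsu1, and without an intensity trend 1, Vcl. Fyn also lost its call without mouse 135 (limma adjusted p = 0.0674).

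Of the ligand genes, 26 of 28 were measured, with a median of 0.01. The restricted test called 1 (3.85%), against 1.22% of probe sets with 1 gene symbol. Lamb2, which encodes the laminin beta2 chain, was 8.78 and 8.08 in Cre+ mice, compared with 7.23 and 7.32 in Cre- mice. Both Cre+ values were higher, and they were 0.70 apart. The difference was 1.16 (SE 0.24, 2.23-fold, limma adjusted p = 0.0372 in the restricted test), and it was 0.81 without mouse 129 and lost its call without an intensity trend (adjusted p = 0.133). Cdh1, the gene of E-cadherin, the ligand of alphaE beta7, was 7.35 and 7.58 in Cre+ mice, compared with 8.16 and 8.01 in Cre- mice (-0.61, SE 0.13, limma adjusted p = 0.0506 in the restricted test). It was past that threshold without mouse 135 (0.0439), without mouse 137 (0.0204) and with sex as a block (0.0135). Lamc1, the laminin gamma1 chain gene, differed by -0.33 (SE 0.10) and Lama3 by 0.15 (SE 0.10). The list of thymic stroma markers, whose cells make most matrix, had 16 of 16 measured and 0 past the restricted test. Its summed levels were 11.52 and 11.47 in Cre+ mice, and 11.52 and 11.48 in Cre- mice. Of the 16, 7 had higher and 9 lower means, with 1 in each direction at an unadjusted limma p under 0.05. Over probe sets with 1 gene symbol that share was 4.05% higher and 2.71% lower, so counts this small do not set the list apart. Epcam differed by -0.48 (SE 0.15) and Pdgfrb by 0.43 (SE 0.14), so the sums do not show that each gene was unchanged.

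Of the surface proteins that associate with integrins, 16 of 17 genes were measured. The restricted test called 2 (12.5%), against 1.22% of probe sets with 1 gene symbol. Cd81, a tetraspanin that associates with alpha4 beta1, was 11.39 and 11.38 in Cre+ mice, compared with 10.51 and 10.74 in Cre- mice (0.76, SE 0.08, 1.70-fold, limma adjusted p = 0.00297 in the restricted test), and it passed in all 7 versions. Cd53, another tetraspanin, was at 8.12 and 8.53 against 9.38 and 9.17 (-0.95, SE 0.17, adjusted p = 0.0215 in limma's restricted test). Its call in that test was lost without an intensity trend (adjusted p = 0.0846). These 2 tetraspanins thus differed in opposite directions. Cd44, the hyaluronan receptor gene, differed by -0.42 (SE 0.10) and Cd9 by 0.35 (SE 0.13), neither past the restricted test. The list median was -0.04, and it was 0.03 without mouse 135.

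**Figure D5:**
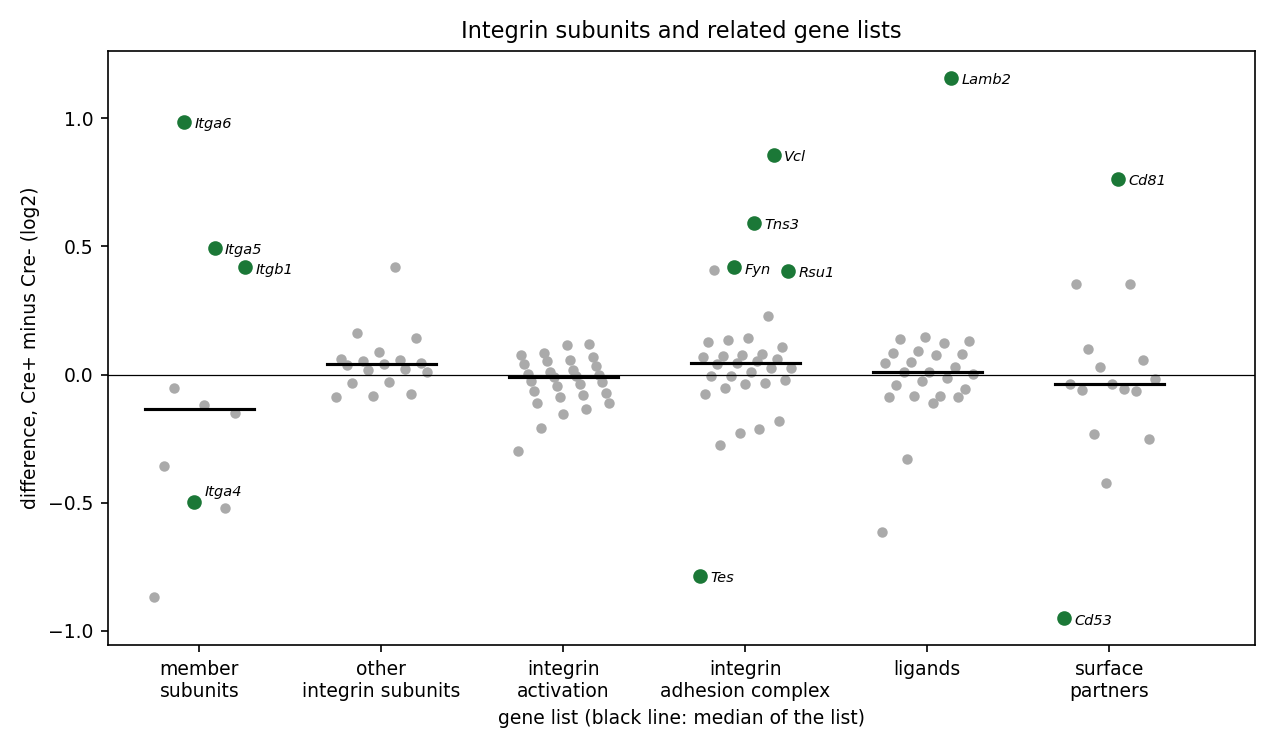
Difference between Cre+ and Cre- means (vertical axis, log2) of each measured gene in the member family and the 5 related lists, with a black line at each list's median. Green points with names passed the restricted test. The members' points spread from -0.87 to 0.99. Those of the adhesion complex spread from -0.79 to 0.86, of the ligands from -0.61 to 1.16 and of the surface partners from -0.95 to 0.76. None of the 29 activation genes lies outside -0.30 to 0.12, and the other integrin subunits lie between -0.09 and 0.42.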

How the data were processed

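Gene expression was measured with 1 Affymetrix mouse gene array per mouse, on amplified RNA from a labelling of 2 cycles, per the labels' protocols. Input RNA differed among 3 codes there, which no label links to a mouse. The authors deposited log2 values for each probe set; RMA is the method that the submitters' processing notes name. Values ran from 3.14 to 14.4, with array medians of 6.85 to 6.88. The sources used here give no version of RMA, no filter and no genome build. Scanner files were not used here, so signal over background was not analysed here, and 0 sample columns were left unused.

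Gene names came from the platform's annotation: 21789 probe sets carry 1 symbol, 1621 carry several and 12146 are unlisted. All 10 members kept their symbol in the RefSeq gene table. All 35556 probe sets were fitted with limma 3.58.1 in R 4.3.3 (eBayes with an intensity trend, 2 residual and 2.99 prior degrees of freedom) and adjusted by Benjamini-Hochberg at a threshold of 0.05. The restricted test repeats this over probe sets with 1 gene symbol, with the prior estimated anew (6.12 prior degrees of freedom). Its calls thus differ through the prior as well as through the number of tests. Standard errors and intervals given here are those of the fit over all probe sets. Alternatives left out each mouse, centred the arrays, filtered low probe sets, dropped the trend or added sex as a block. Mice are separate animals, and no number pairs them across groups.

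The members and gene lists were chosen with earlier results of these data known. Named from each list were the 4 genes with the smallest p and any past a threshold, with the 3 genes nearest to the member with the smallest p. Markers and others named beside them were chosen after their values were seen. A planned comparison of protein tails was not made.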

Additional observations from a re-analysis of the deposited data

Results flagged for a closer look

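Itgal was the member whose direction differed between the females and the males. The Cre+ female exceeded the Cre- female by 0.072, and the Cre+ male was below the Cre- male, with a difference of -0.37 on the log2 scale. Each value is 1 mouse minus 1 mouse, and the difference between the pairs was not tested. The highest Itgal value, 10.83, was that of Cre- mouse 137.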

How the results depend on the processing

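The number of probe sets called over all was 0 as first tested, 10 after centring of the arrays, 25 and 80 with probe sets above the 25th percentile and above the median level, and 266 among probe sets with 1 gene symbol. At those settings 1, 1, 2 and 4 members were called, and at the other settings with all mice 0. At an unadjusted p under 0.05 in limma there were 7 members at each setting with all mice, except above the median level. There the count was 6, and Itgae and Itgb3 were filtered out. In the restricted test the members called ranged from 2 (without mouse 129) to 5 (without mouse 131 or 137) when 1 mouse was left out, and were 1 without an intensity trend and 6 with sex as a block, all chosen after seeing the data. Over all probe sets with 1 gene symbol these fits called 138 without mouse 129, 480 without mouse 131, 130 without a trend and 565 with sex as a block. With 1 mouse left out, the lone mouse of its group is assumed to vary like the others. The members' median ranged from -0.25 without mouse 131 to -0.092 without mouse 137. The median of the ligand list was -0.056 above the median level and ranged from 0.0044 to 0.056 when 1 mouse was left out, and that of surface partners from -0.064 to 0.029. With 1 mouse left out, Itgal ranged from -0.32 to 0.018 (without mouse 137), Itgb3 from -0.13 to 0.029 (0.028 without mouse 131, 0.029 without mouse 135) and Itgb4 from -0.0086 (without mouse 137) to 0.30, so that directions turned in 3 of 138 member results and 1 of 288 of named pathway genes. The labels give no numbers that pair mice across groups, so the block used was the sex read from the transcripts, with the counts given above. Only 4 arrays limit every value, and signal over background was not analysed here.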
